A study of Mus musculus with 10 samples.

Results

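The genes described here are 10 regulators of the cortical actin cytoskeleton, taken by symbol from a table of 55414 genes: the PDZ-LIM adaptors Pdlim1, Pdlim2, Pdlim5 and Pdlim7, the β-thymosins Tmsb4x, Tmsb10 and Tmsb15b1, the LL5 proteins Phldb1 and Phldb2, and Limch1. They were put together because Pdlim1 and Tmsb15b1 were lower and Phldb1 was higher in Camk2d knockout (KO) clones, and because cortical actin bears on aquaporin-2 (AQP2) trafficking. The KO versus intact values of these 3 genes therefore chose the group and are given as a description with no test. RNA-seq was done on mpkCCD cells, an immortalized mouse line of collecting duct principal cells. All 10 samples were grown on membrane supports with 0.1 nM dDAVP, a vasopressin V2-receptor agonist, for 7 days, of which 4 were in complete and 3 in simple medium. The 5 Camk2d-intact samples came from 3 lines: 1 sample of the parental cells, and 2 samples each of intact clone 1 and intact clone 2, which had been through the transfection and kept CAMK2D. The 5 KO samples were 5 single-cell-derived clones made with CRISPR-Cas9, KO 1 and KO 2 with a guide to exon 8 of Camk2d and KO 3, KO 4 and KO 5 with a guide to exon 9. Each KO line is 1 clone and the sources used here do not say whether the paired samples of an intact clone were separate cultures, so p-values measure the spread between these samples and lines.

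PDZ-LIM proteins carry a PDZ domain that binds α-actinin on actin filaments and LIM domains that bind kinases and other partners. β-Thymosins are very small proteins that bind actin monomers and hold them out of filaments. LL5 proteins tether microtubule ends and secretory vesicle docking sites to the basal cell cortex, and LIMCH1 binds nonmuscle myosin II. In collecting duct principal cells, vasopressin lowers the amount of cortical filamentous actin while AQP2 vesicles move to the apical membrane.

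Values are TPM, which scale reads by transcript length, so levels of different genes can be compared. Camk2d itself averaged 132 ± 6.97 TPM with the gene intact and 24.7 ± 3.65 TPM after knockout (SD, n = 5 each), without overlap (log2 difference -2.39 ± 0.09 SE, limma adjusted p = 1.2e-06). It was the 1 gene of 20000 tested that passed an adjusted p of 0.05 in this comparison, which is 0.00500%. The principal cell markers Aqp2 (3773 to 5502 TPM in intact samples), Avpr2, Scnn1a and Gata3 were abundant. Aqp3 (1.1 to 3.34 TPM in intact samples) and Aqp4 (0.1 to 8.54 TPM in intact samples) were low, and Scnn1b, Elf5 and Kcnj1 were under 1 TPM. Their sum over 11 markers ran from 4449 to 6217 TPM in intact samples and from 2014 to 4568 TPM in KO clones, led by Aqp2, and its part in the results below was not tested. All 7 fibroblast markers and all 5 endothelial markers had means under 1 TPM, as did 4 of 5 smooth muscle markers. Of 6 intercalated cell markers, 5 were under 1 TPM and Atp6v1b1 made up nearly all of the sum, which was 23.6 to 30.8 TPM in intact and 21.8 to 49.3 TPM in KO samples. The 5 immune markers summed to 15.1 to 21.9 TPM in intact and 14.9 to 30.3 TPM in KO samples, led by Csf1r, with Ptprc, Lyz2 and Cd3e under 1 TPM. In bulk samples such as these, fewer cells that express a gene and less RNA per cell cannot be told apart.

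The β-thymosin coding sequences are shown first, because the values of the thymosin β15 genes depend on how alike these genes are. They are the coding sequences of GENCODE M21 on GRCm38, from start to stop codon. Capitals mark the bases that differ from Tmsb15b1 after alignment, inserted bases included.
Tmsb15b1: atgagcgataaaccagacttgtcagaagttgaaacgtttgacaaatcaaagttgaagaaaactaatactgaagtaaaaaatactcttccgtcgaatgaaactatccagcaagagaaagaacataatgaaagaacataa
Tmsb15b2: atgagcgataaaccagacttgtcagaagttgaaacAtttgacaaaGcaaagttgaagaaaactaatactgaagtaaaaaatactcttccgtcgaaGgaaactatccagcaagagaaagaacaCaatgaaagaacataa
Tmsb15l: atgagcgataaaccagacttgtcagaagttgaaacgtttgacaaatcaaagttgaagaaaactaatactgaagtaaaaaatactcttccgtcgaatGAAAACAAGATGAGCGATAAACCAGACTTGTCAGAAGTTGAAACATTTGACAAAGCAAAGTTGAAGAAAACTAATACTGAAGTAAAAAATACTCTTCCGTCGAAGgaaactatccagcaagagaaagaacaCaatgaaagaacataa
Tmsb4x: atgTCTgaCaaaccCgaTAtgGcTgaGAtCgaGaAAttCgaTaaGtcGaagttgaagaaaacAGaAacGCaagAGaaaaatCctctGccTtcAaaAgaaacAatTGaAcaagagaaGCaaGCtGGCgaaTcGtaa
Tmsb10: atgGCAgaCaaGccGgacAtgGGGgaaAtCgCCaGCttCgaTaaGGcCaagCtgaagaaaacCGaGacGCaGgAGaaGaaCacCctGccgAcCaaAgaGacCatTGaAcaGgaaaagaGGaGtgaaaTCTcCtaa
Tmsb15b1 and Tmsb15b2 each had 138 coding bases, of which 4 differed (97.1% identity). The first 100 coding bases of Tmsb15l were those of Tmsb15b1 and its last 138 were the whole of Tmsb15b2, with 5 bases between, so this gene reads as one thymosin unit followed by another. The bases gaaa occur at both edges of the inserted stretch, and the alignment puts the capitals from the first of them, 4 bases before the shared start ends. Tmsb4x and Tmsb10 had 135 coding bases each and were 70.4% identical to each other. Tmsb4x was 65.9% identical to Tmsb15b1 over the aligned length.

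The thymosin β15 genes also overlap on the chromosome (GRCm38, minus strand). Tmsb15b1 lies at chrX:136974022-136976874, Tmsb15b2 at chrX:136955265-136975497 and Tmsb15l at chrX:136954988-136976869, a span that covers nearly all of the other two. RefSeq places the start of Tmsb15b1 and of Tmsb15l at the same base, and a separate start for Tmsb15b2 is given further along the strand. The 250 bases before each start are printed 5′ to 3′ on the minus strand (RefSeq, GRCm38.p6), at chrX:136976875-136977124 for Tmsb15b1 and Tmsb15l and at chrX:136957980-136958229 for Tmsb15b2. Capitals mark the bases that differ where both align.
Tmsb15b1: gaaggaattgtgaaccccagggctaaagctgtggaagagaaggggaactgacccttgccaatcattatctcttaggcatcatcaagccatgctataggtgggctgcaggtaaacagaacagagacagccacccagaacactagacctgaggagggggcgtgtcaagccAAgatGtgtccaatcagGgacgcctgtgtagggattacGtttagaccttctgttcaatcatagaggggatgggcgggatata
Tmsb15b2: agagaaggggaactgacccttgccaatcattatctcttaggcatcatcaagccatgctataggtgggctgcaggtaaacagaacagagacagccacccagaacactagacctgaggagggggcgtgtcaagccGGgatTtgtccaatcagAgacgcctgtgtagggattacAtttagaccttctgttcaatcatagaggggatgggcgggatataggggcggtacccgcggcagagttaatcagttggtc
Over 215 aligned bases, 5 differed (97.7% identity). Of the 50-base windows in transcripts of Tmsb15b1, 59.2% also occur in Tmsb15l, and of those in Tmsb15b2, 75.6% do. Reads were 50-bp pairs, so how the authors' counting split them among the 3 genes is uncertain, and the summed TPM is given beside each gene.

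In the intact samples Tmsb4x, the main monomer-binding thymosin of most cells, had 1501 ± 127 TPM (SD, n = 5) and ranked 40 of all genes by mean TPM over the 10 samples. Tmsb10, its close relative, had 421 ± 51.0 TPM. They were followed by Pdlim2 (157 ± 24.2 TPM), Pdlim7 (137 ± 9.85 TPM) and Pdlim1 (122 ± 12.7 TPM), whose neighbouring ranges overlapped. Pdlim5 came next at 75.0 ± 3.66 TPM, and Limch1 (53.7 ± 11.5 TPM) and Phldb2 (43.0 ± 3.37 TPM) overlapped with each other below it. Phldb1 at 11.9 ± 1.28 TPM and Tmsb15b1 at 5.53 ± 0.92 TPM were the lowest. Every sample value of the 10 genes was above 0.

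**Figure D1:**
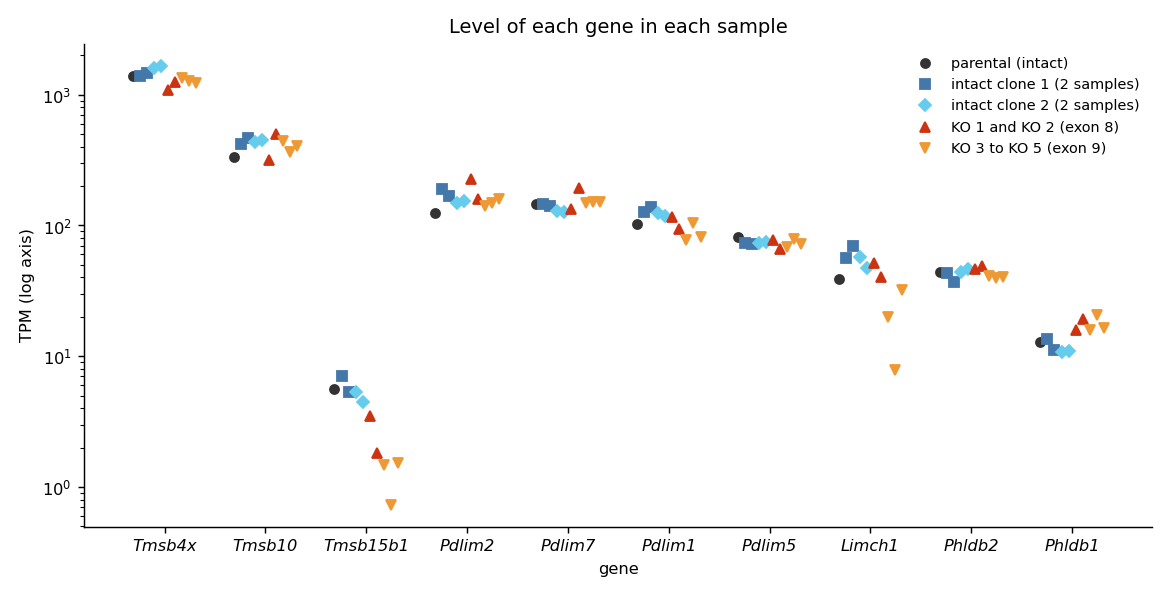
TPM of the 10 genes in each of the 10 samples on a log axis, with circles for the parental line, squares and diamonds for the 2 samples of each intact clone, and triangles for KO clones by target exon. Tmsb4x lay lower in all 5 KO clones (1090 to 1330 TPM) than in any intact sample (1382 to 1660 TPM), and Limch1 was the member with the widest scatter among the more abundant genes, down to 7.83 TPM in KO 4.

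Pdlim1 (chr19:40221173-40271842, minus strand, GRCm38), also called CLP36, binds α-actinin on stress fibres. It had 103 TPM in the parental line, 126 and 138 TPM in intact clone 1, and 124 and 118 TPM in intact clone 2. From KO 1 to KO 5 the values were 116, 94.6, 77.0, 105 and 81.5 TPM, and KO values follow this order below. KO 2, KO 3 and KO 5 lay below all intact samples, while KO 1 and KO 4 lay within the intact range, KO 4 just above the parental value. The KO mean was 94.8 ± 16.1 TPM (SD, n = 5), 77.7% of the intact mean, a log2 difference of -0.37 ± 0.11 (SE), on the log2(TPM + 1) scale that is used throughout. It was -0.21 for the exon 8 clones alone and -0.48 for the exon 9 clones alone. Of the 50-base windows in its transcripts 9.74% also occur in other genes, mainly Gm5864.

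None of the other PDZ-LIM genes passed a test between KO and intact samples. Pdlim2, which is known as a nuclear and cytoskeletal adaptor that promotes turnover of NF-κB, had 125 TPM in the parental line, 191 and 168 TPM in intact clone 1, and 149 and 153 TPM in intact clone 2. KO 1 had 225 TPM, above all intact samples, and KO 2 to KO 5 had 159, 141, 149 and 159 TPM, within the intact range. The log2 difference was 0.08 ± 0.14 (SE, 95% interval -0.23 to 0.38, limma adjusted p = 0.923). Its sign turned without KO 1 (-0.04), without the parental sample (-0.0019) and in the exon 9 clones alone (-0.06).

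Pdlim7, or Enigma, an adaptor for α-actinin, tropomyosin and receptor kinases, had 145 TPM in the parental line, 147 and 141 TPM in intact clone 1, and 128 and 126 TPM in intact clone 2. The KO clones had 133, 193, 147, 151 and 151 TPM, so 4 of 5 lay above all intact samples and KO 1 lay among them. The log2 difference was 0.17 ± 0.09 (SE, 95% interval -0.04 to 0.37), with a limma adjusted p of 0.759 and a two-sided exact permutation p of 0.119, and it was 0.08 without KO 2. Pdlim5, or ENH, which links protein kinase C to the cytoskeleton, had 72.3 to 81.3 TPM in intact samples and 66.1 to 78.4 TPM in KO clones, with only KO 2 and KO 3 below all intact samples. Its log2 difference was -0.05 ± 0.06 (SE, 95% interval -0.18 to 0.08, limma adjusted p = 0.872). The rest of the family was hardly present, with intact means of 0.02 TPM for Pdlim3, 0.19 TPM for Pdlim4 and 0.15 TPM for Ldb3.

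Among the thymosins, Tmsb4x (chrX:167207093-167209315, minus strand) had 1382 TPM in the parental line, 1387 and 1468 TPM in intact clone 1, and 1609 and 1660 TPM in intact clone 2. In KO clones it had 1090, 1259, 1330, 1272 and 1226 TPM. All 5 KO clones lay below all 5 intact samples, with the highest KO clone, KO 3, just under the parental line. Over all genes tested, 0.445% had KO values that all lay below the intact ones. The KO mean was 82.3% of the intact mean, a log2 difference of -0.28 ± 0.08 (SE, 95% interval -0.45 to -0.11). The exact permutation p was 0.00794 over the 10 samples, the smallest that 5 against 5 samples can give two-sided, and 0.0357 over the 8 lines (56 arrangements). Across all 20000 genes it did not pass, with a limma adjusted p of 0.524 (unadjusted p = 0.00378). The intact clones themselves differed in this gene by 0.20 ± 0.05 (SE), clone 2 being higher than clone 1 (limma adjusted p = 0.224). None of the 50-base windows of Tmsb4x occur in another gene.

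Tmsb10 had 335 TPM in the parental line, 419 and 467 TPM in intact clone 1, and 434 and 448 TPM in intact clone 2. KO values were 317, 501, 440, 365 and 407 TPM, so KO 1 lay below and KO 2 above all intact samples. The log2 difference was -0.06 ± 0.13 (SE, 95% interval -0.34 to 0.22, limma adjusted p = 0.938), and without KO 1 it was 0.03. In Tmsb10, 27.0% of the windows also occur in other genes, of which Gm9844 shares most.

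Tmsb15b1 had 5.57 TPM in the parental line, 7.00 and 5.30 TPM in intact clone 1, and 5.29 and 4.49 TPM in intact clone 2. The KO clones had 3.51, 1.83, 1.46, 0.73 and 1.52 TPM. The groups did not overlap, KO 1 being the KO clone nearest to the intact samples and KO 4 the farthest, and 0.445% of all genes tested showed such a fall without overlap. The KO mean of 1.81 ± 1.03 TPM (SD, n = 5) was 32.7% of the intact mean, with a log2 difference of -1.28 ± 0.22 (SE).

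Tmsb15l, which starts at the same base as Tmsb15b1 in RefSeq, had 8.53 TPM in the parental line, 12.9 and 11.4 TPM in intact clone 1, and 11.1 and 10.5 TPM in intact clone 2. Among KO clones it had 7.22, 11.0, 3.05, 1.05 and 3.03 TPM. KO 2 lay within the intact range, KO 1 just under it, and the 3 exon 9 clones far below. Tmsb15b2 was listed at 0 in KO 1, KO 2 and 1 sample of intact clone 1, and had 0.87 to 4.96 TPM in the other samples. Tmsb15a was listed at 0 in all 10 samples.

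Summed over Tmsb15b1, Tmsb15b2 and Tmsb15l, the intact samples had 16.6, 19.9, 18.8, 17.3 and 19.97 TPM in the order parental, intact clone 1 and intact clone 2. For the KO clones the sums were 10.7, 12.8, 6.39, 4.73 and 5.61 TPM. The sum thus lay in separate ranges in intact samples, exon 8 clones and exon 9 clones, from high to low. The KO mean was 8.06 ± 3.53 TPM (SD, n = 5) against 18.5 ± 1.52 TPM (SD, n = 5), a log2 difference of -1.19 ± 0.22 (SE) that is again a description, since it contains Tmsb15b1.

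The guide comparison was not used to choose the genes, but its test on the sum was singled out with the values of these genes known, and the sum contains Tmsb15b1, so the p is not independent evidence. The sum was lower in exon 9 than in exon 8 clones by a log2 difference of -0.96 ± 0.14 (SE, limma adjusted p = 0.0321), where the fit of all genes called 0.310% (62 of 20000). For the genes listed singly, Tmsb15l differed by -1.62 ± 0.30 (SE, adjusted p = 0.0776 with limma), Tmsb15b1 by -0.70 ± 0.25 (SE, adjusted p = 0.321) and Tmsb15b2 by 1.52 ± 0.62 (SE, adjusted p = 0.387), and none of these passed. With 1 value per cell line the difference of the sum kept its size but not its call (limma adjusted p = 0.102). It also lost the call when KO 4, KO 5 or any 1 sample of the intact clones was left out, with adjusted p from 0.0563 to 0.101 in limma. Aqp2 had a difference of the opposite sign, with means of 1450 TPM in the exon 8 and 3175 TPM in the exon 9 clones (log2 difference 1.13 ± 0.19 SE, limma adjusted p = 0.0513), and its part in the thymosin values was not tested. With 2 clones against 3, guide and clone cannot be told apart.

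**Figure D2:**
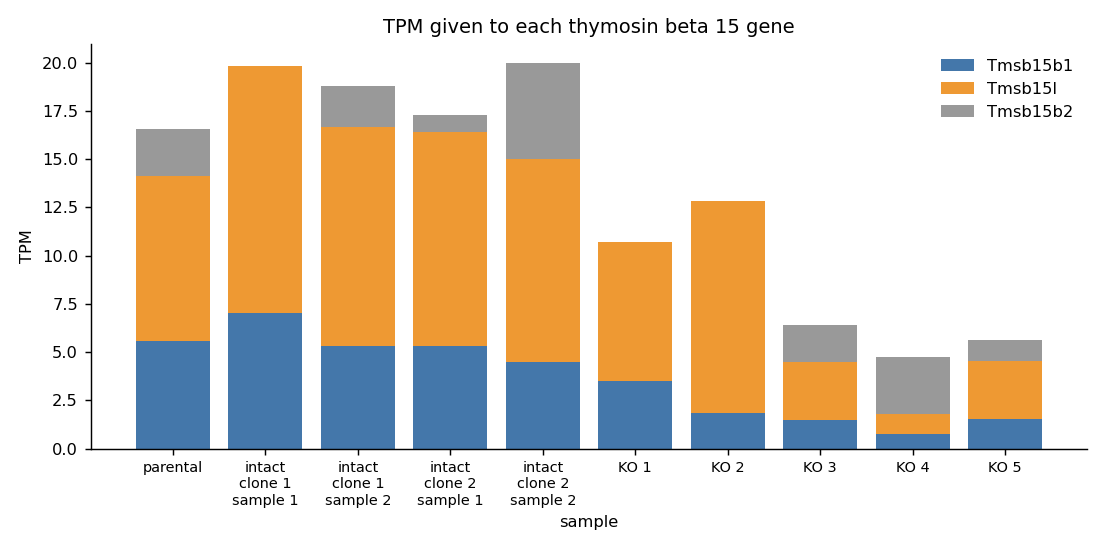
Stacked TPM that the authors' quantification gave to Tmsb15b1, Tmsb15l and Tmsb15b2 in each sample, with bars from 0. The stacks reach 16.6 to 19.97 TPM in intact samples, 10.7 and 12.8 TPM in the exon 8 clones KO 1 and KO 2, and 4.73 to 6.39 TPM in the exon 9 clones KO 3 to KO 5.

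Phldb1 (chr9:44686304-44735198, minus strand), which encodes LL5α, had 12.9 TPM in the parental line, 13.6 and 11.2 TPM in intact clone 1, and 10.8 and 10.9 TPM in intact clone 2. The KO clones had 16.0, 19.3, 15.8, 20.7 and 16.4 TPM. All KO values exceeded the intact ones, as in 1.20% of all genes tested, and the exon 8 and exon 9 clones had the same mean of 17.6 TPM. The KO mean of 17.6 ± 2.21 TPM (SD, n = 5) was 148% of the intact mean, with a log2 difference of 0.53 ± 0.10 (SE).

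Phldb2, which encodes LL5β, the more abundant LL5 transcript here, did not follow it. Its intact samples had 44.2 TPM in the parental line, 43.2 and 37.3 TPM in clone 1, and 44.3 and 46.1 TPM in clone 2. KO clones had 46.4, 49.2, 41.1, 40.0 and 40.5 TPM, the exon 8 clones lying just above the intact samples and the exon 9 clones among them. The log2 difference was 0.01 ± 0.08 (SE, 95% interval -0.15 to 0.18, limma adjusted p = 0.986), and its sign changed with the scaling (-0.02 after median ratio scaling and after quantile normalization). Phldb3 was low in both groups, at 1.41 ± 0.17 TPM in intact and 1.41 ± 0.20 TPM in KO samples (SD, n = 5 each).

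Limch1 (chr5:66745827-67057158, plus strand) varied widely between clones. It had 38.6 TPM in the parental line, 56.6 and 69.1 TPM in intact clone 1, and 56.9 and 47.3 TPM in intact clone 2. In the KO clones it had 51.5, 40.3, 19.9, 7.83 and 32.1 TPM. The 2 exon 8 clones lay within the intact range, and the 3 exon 9 clones lay below all intact samples, so the groups overlapped. The SD of log2(TPM + 1) among the KO clones was 1.01, larger than in 99.2% of 9252 genes with a mean of at least 10 TPM, and among intact samples it was 0.31, larger than in 97.0% of them.

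The KO versus intact difference in Limch1 was -1.02 ± 0.41 (SE, 95% interval -1.93 to -0.10). The exact permutation p was 0.0397 over the 10 samples but 0.143 over the 8 lines, and the limma adjusted p was 0.683. It was -0.21 for the exon 8 clones alone and -1.55 for the exon 9 clones alone, and -0.62 without KO 4. Exon 9 against exon 8 clones gave -1.35 ± 0.45 (SE, 95% interval -2.37 to -0.33), which did not pass (limma adjusted p = 0.300). Lmo7, its closest relative, stood at 87.9 ± 3.76 TPM in intact and 87.6 ± 7.33 TPM in KO samples (SD, n = 5 each), with a log2 difference of -0.01 ± 0.06 (SE, limma adjusted p = 0.991).

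Of the 7 members that the KO contrast had not chosen, 0 passed an adjusted p of 0.05 in limma, and 2 (Tmsb4x and Limch1, both lower) had an unadjusted p under 0.05, against 6.99% of all genes tested (4.53% higher and 2.46% lower). Only Tmsb4x among these 7 had groups that did not overlap, against 1.64% of all genes in either direction. The exact permutation p was at least 0.421 for Pdlim2, Pdlim5, Tmsb10 and Phldb2. The 3 that chose the group spanned -1.28 to 0.53 and the 7 others -1.02 to 0.17.

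Between the exon 9 and the exon 8 clones, 0 of the 10 members passed in limma, and 3 had an unadjusted p under 0.05, against 12.1% of all genes (4.93% higher and 7.18% lower). These were Limch1, Tmsb15b1 and Phldb2 (-0.23 ± 0.08 SE, adjusted p = 0.328 in limma), all lower with the exon 9 guide. Pdlim1 differed by -0.26 ± 0.15 (SE, adjusted p = 0.537) and Pdlim2 by -0.34 ± 0.18 (SE, adjusted p = 0.483). These differences moved with single clones, from -0.12 without KO 1 to -0.41 without KO 2 in Pdlim1, from -0.09 to -0.59 in Pdlim2 and from -0.36 to -1.03 in Tmsb15b1 for the same clones. In Limch1 the guide difference was -0.82 without KO 4. Phldb1 showed a difference of 0.00 ± 0.15 to 2 decimals (SE, 95% interval -0.33 to 0.33). An exact permutation test cannot reach 0.05 with 2 against 3 clones.

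Between intact clone 2 and intact clone 1, 0 of the 10 passed in limma, and 3 had an unadjusted p under 0.05, against 16.9% of all genes (7.86% higher and 9.07% lower). The clone 2 minus clone 1 difference was 0.20 ± 0.05 (SE) in Tmsb4x, -0.18 ± 0.03 (SE, limma adjusted p = 0.163) in Pdlim7 and -0.24 ± 0.08 (SE, limma adjusted p = 0.293) in Pdlim2, with 2 samples of each clone. Phldb1 differed by -0.17 ± 0.12 (SE) and Pdlim1 by -0.13 ± 0.06 (SE). These comparisons share samples with the KO comparison and are given side by side only.

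**Figure D3:**
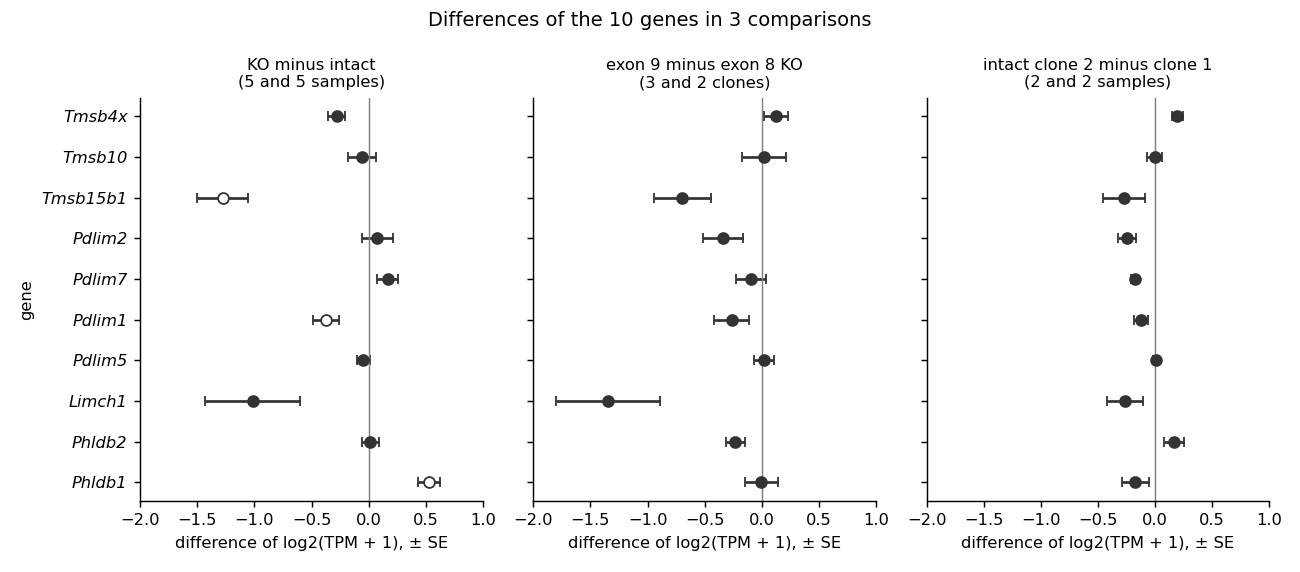
Difference of log2(TPM + 1) for the 10 genes in the KO versus intact, exon 9 versus exon 8 and intact clone 2 versus clone 1 comparisons, with bars of 1 SE. Open circles mark the 3 genes chosen by their KO values, from -1.28 in Tmsb15b1 to 0.53 in Phldb1, and Limch1 has the widest bars in the first 2 panels.

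The wider actin machinery was read from 11 lists, which hold 108 genes besides the members, 104 of them above 0 in some sample and 100 tested. In KO clones 66 were higher and 34 lower by any amount, with a median log2 difference of 0.03 against 0.02 for all genes tested, of which 57.3% were higher. After median ratio scaling 49 of the 100 were higher, against 50.2% of all genes. After quantile normalization 61 were, against 51.4% of all genes, so the size of this split depends on the scaling used. None passed an adjusted p of 0.05 in limma. At an unadjusted p under 0.05 there were 6 higher and 3 lower, 9.00% of the tested list genes, near the 6.99% of all genes (4.53% higher and 2.46% lower). In 4 of the 100 the groups did not overlap, 2 in each direction, against 1.64% of all genes.

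The 4 were Ahnak, a giant scaffold under the plasma membrane (56.6 ± 2.43 TPM in intact and 71.9 ± 6.98 TPM in KO samples, SD, n = 5 each), Cttn, Myo5b and Slc9a3r1. Ahnak and Cttn overlapped after median ratio scaling and after quantile normalization, and Tmsb4x, Myo5b and Slc9a3r1 did not. The log2 difference of Ahnak was 0.34 ± 0.07 (SE, limma adjusted p = 0.378). Cttn, or cortactin, which stabilizes branched actin, differed by 0.09 ± 0.06 (SE, adjusted p = 0.767). Myo5b, the motor that carries recycling vesicles including those with AQP2, differed by -0.29 ± 0.08 (SE, adjusted p = 0.524), at 16.5 ± 0.57 TPM in intact and 13.4 ± 1.61 TPM in KO samples (SD, n = 5 each). Slc9a3r1, or NHERF1, which ties membrane proteins to ezrin, differed by -0.19 ± 0.08 (SE, adjusted p = 0.651).

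By list, the LIM and calponin adaptors apart from Limch1 had 8 of 9 higher in KO clones by any amount, with a median of 0.11. After median ratio scaling 6 of 9 were higher, and after quantile normalization 7 of 9. The cortical platform genes apart from Phldb1 and Phldb2 had 7 of 8 higher, and 4 of 8 and 5 of 8 after these scalings in the same order. The nucleators had 13 of 16 higher, and 6 of 16 and 11 of 16 after them. Crosslinker and spectrin genes had 10 of 12 higher, and 9 of 12 and 10 of 12 after them. Myosin and tropomyosin genes had 6 of 15 higher, of which Myh9 (0.23 ± 0.07 SE, limma adjusted p = 0.571) and Mylk (0.21 ± 0.09 SE, adjusted p = 0.694) had an unadjusted p under 0.05. None of these genes passed the adjusted threshold.

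**Figure D4:**
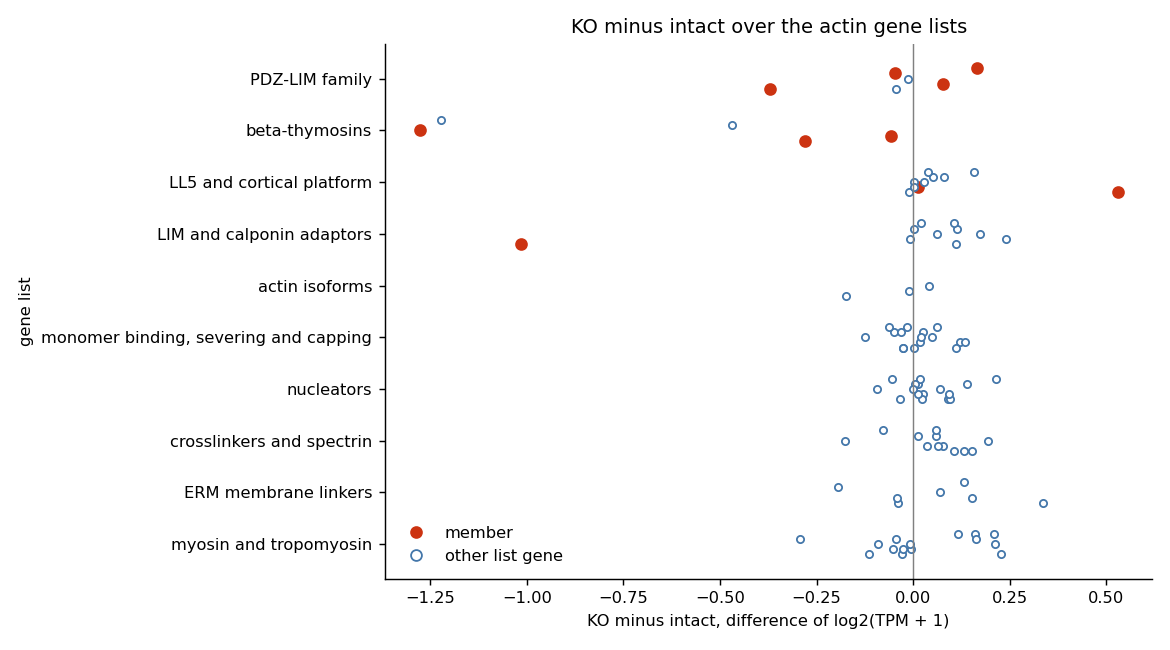
KO minus intact difference of log2(TPM + 1) for each tested gene of 10 actin lists, with members as filled and other genes as open points (vertical offsets within a list only separate points). Among the open points, Tmsb15l at -1.22 lies lowest and Ahnak at 0.34 highest.

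In the exon 9 against the exon 8 clones 16 of the 100 list genes had an unadjusted p under 0.05 (6 higher and 10 lower), against 12.1% of all genes. Of them 1 passed the adjusted threshold, against 0.310% of all genes. It was Gsn, which encodes gelsolin, a filament severing and capping protein. It had 277 TPM in the parental line, 282 and 273 TPM in intact clone 1, and 277 and 294 TPM in intact clone 2. KO 1 and KO 2 had 377 and 477 TPM, and KO 3 to KO 5 had 254, 234 and 258 TPM. The exon 8 clones thus lay above and the exon 9 clones below all intact samples. The log2 difference between the guides was -0.77 ± 0.09 (SE, limma adjusted p = 0.0157). The call was lost with 1 value per cell line (limma adjusted p = 0.0828) and without KO 3 (0.0562). Pooled over guides the KO difference in Gsn was 0.13 ± 0.18 (SE, limma adjusted p = 0.887). Between the intact clones 0 of the 100 list genes passed in limma, and 24 had an unadjusted p under 0.05, against 16.9% of all genes.

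Genes with the most similar pattern were ranked by Pearson's r of log2(TPM + 1) over the means of the 8 lines, among genes with a mean of at least 5 TPM. The 8 points share the same samples and the same split into intact and KO lines, and r is a description. For Pdlim1 they were Pkia (r = 0.940), Magt1 (r = 0.876) and Cldn1 (r = 0.870). For Tmsb15b1 they were Fam98a (r = 0.958), Vgll4 (r = 0.943) and Rab24 (r = 0.929), and for Phldb1 Cactin (r = 0.986), Bag6 (r = 0.966) and Bcl2 (r = 0.961). For Limch1, which was added after its values were seen, they were Ghr (r = 0.973), Dynlt2b (r = 0.951) and Riox2 (r = 0.944).

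The promoter table held 14 windows for 9 of the 10 members, from 250 bases before to 50 after a start, and each was searched on both strands. Motifs searched were the CArG box of serum response factor (present in 1.63% of all 32817 windows), GGAATG of TEAD factors (14.7%), TGANTCA of AP-1 (7.81%), TGACGTCA of CREB (1.79%) and TATAAA (13.6%). The windows of the members held TATAAA in 2 cases, 1 of Pdlim5 and 1 of Limch1, and held none of the other 4 patterns, which says only that these letters are not in these windows.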

How the data were processed

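RNA-seq of 10 samples was used. The authors made full-length cDNA with the SMART-Seq kit, aligned 50-bp read pairs with STAR 2.7.10b to Ensembl 106 and quantified genes with RSEM 1.3.1 (versions from the submitters' processing notes and the methods). The deposited values are TPM per gene, 1 column per sample, and 0 sample columns were left unused. TPM keep no depth, so depth is unknown, no interval or floor from counts is given, and 0 means listed at 0. The authors tested expected counts with edgeR. Those counts were not used here.

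The 20000 genes highest in mean TPM were fitted as log2(TPM + 1), pseudocount 1, with limma 3.58.1 in R 4.3.3 (lmFit, eBayes with trend) and Benjamini-Hochberg adjustment over all of them, threshold 0.05. A fold on this scale understates the change of low genes. KO against intact used all samples in 2 groups, the guides all samples in 3 groups, and the intact clones their 4 samples. The procedure was tested on simulated data. Single genes had a two-sided exact permutation test (scipy 1.17.1). Groups came from the labels, and the target exon of each clone from the study's supplement.

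The members and lists were chosen with earlier results of these data known. Named were all members and their close copies, Camk2d, Aqp2, list genes past an adjusted p of 0.05 in any comparison, up to 3 non-overlapping list genes in each direction with a mean of at least 1 TPM, and the 3 genes most like Pdlim1, Tmsb15b1 and Phldb1. Limch1's like genes, Myh9 and Mylk were named after their values were seen. The values of 1 gene list are not reported here on their own. The alternatives were other pseudocounts, filters, scalings, moderation and thresholds, 1 value per line, the line as random effect (statmod 1.5.0), single guides, ratios of means, summed Tmsb15 TPM and leaving out samples. Sequences are from GENCODE M21 (GRCm38) and RefSeq (GRCm38.p6), an older build than the authors' annotation.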

Additional observations from a re-analysis of the deposited data

Results flagged for a closer look

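In 22 groups of 5 samples (the members and the Tmsb15 sum in intact and KO samples), 2 had a sample far from the others. For independent samples chance gives about 1 in 20 groups. The intact groups hold 2 samples of each intact clone, so that rate is only a rough guide for them. KO 1 had 225.36 TPM of Pdlim2, while the other KO clones had 141 to 159 TPM. The parental line had 81.34 TPM of Pdlim5, while the intact clones had 72.3 to 74.3 TPM.

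Gsn differed between the KO clones of the 2 guides, by a log2 difference of -0.77 between exon 9 and exon 8 clones (limma adjusted p = 0.0157), a call lost with 1 value per line (limma adjusted p = 0.0828) and without KO 3 (0.0562). Between the same clones Aqp2 had a log2 difference of 1.13 (limma adjusted p = 0.0513), and its part in the Gsn values was not tested.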

How the results depend on the processing

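No paired analysis was possible because the replicate numbers of KO clones and intact samples name different cell lines. Tmsb4x was lower in KO clones under all 24 alternatives (log2 -0.35 to -0.23, limma adjusted p 0.275 to 1.00), as were Limch1 (-1.55 to -0.21) and, with no test, Pdlim1 (-0.48 to -0.21) and Tmsb15b1 (-1.70 to -0.86, 25 alternatives), while Phldb1 was higher (0.47 to 0.58). The 1 call in KO against intact became 2 with a pseudocount of 0.1, 50 with the exon 8 clones alone, and 1 to 2 leaving out a sample. Of the members and list genes, leaving out the 3 chosen ones, 11 had an unadjusted p under 0.05. This count became 5 with 1 value per line and 6 with the line as random effect (consensus correlation 0.606). It was 17 with the exon 9 clones alone and 8 to 14 leaving out a sample. Those without overlap (5) became 3 under both median ratio scaling and quantile normalization, which make Ahnak and Cttn overlap. They became 23 with exon 8 and 13 with exon 9 clones alone, where fewer KO clones separate from the intact samples more easily. The shares over all genes were not computed under these alternatives, so these counts are not read as a result about the lists. The 62 calls between guides became 147 at an adjusted p under 0.1, 6 with 1 value per line and 36 with the random effect, and 21 to 1730 leaving out a sample, the largest counts being 1730 without KO 1 and 634 without KO 2, where the lone exon 8 clone is assumed to vary like the other groups. The 0 calls between intact clones (3386 at an unadjusted p under 0.05) became 247 with a mean TPM of at least 1, 11 without trend, 181 with robust moderation, 390 at an adjusted p under 0.1 and 28 with all 10 samples. The alternatives for the guide comparisons of the Tmsb15 sum and Gsn and for leaving out samples of the intact clones were added after seeing the data; the sum ran from -1.08 to -0.84 and Gsn from -0.94 to -0.60. Signs turned only for small differences. In KO against intact these were Phldb2 (-0.015 after median ratio scaling, -0.022 after quantile normalization, -0.080 in exon 9 clones, and -0.036 to 0.041 leaving out a sample, negative without intact sample 3, KO 1 or KO 2), Pdlim2 (-0.061 in exon 9 clones, and -0.038 to 0.15 leaving out a sample, with -0.0019 without the parental one) and Tmsb10 (-0.14 to 0.027). Between guides they were Phldb1 (0.024 and 0.028 under those 2 scalings, and -0.13 to 0.13 leaving out a sample), Tmsb10 (-0.31 to 0.35), Pdlim5 (-0.097 to 0.14) and Pdlim7 (-0.36 to 0.17). Between intact clones they were Tmsb10 (0.017 and 0.019 under the scalings, -0.083 to 0.073 leaving out a sample) and Pdlim5 (-0.0066 to 0.026). The cause was not tested. The unknown depth limits what can be said of Tmsb15b1 and its copies, which are low.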
